A study of Homo sapiens with 2 samples.

Results

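The RNA interference machinery was followed through 10 genes whose products make or use small RNAs, namely DROSHA, DGCR8, XPO5, DICER1, TARBP2, PRKRA and the 4 Argonautes AGO1 to AGO4. Every gene probe on the arrays that carried one of these names, or an older one (EIF2C1 to EIF2C4 for the Argonautes, RNASEN for DROSHA), was taken. This gave 15 of the 41000 gene probes, for 10 of 30482 gene names. Probes were kept if, on each array, Cy3 or Cy5 rose clearly over the local background by the scanner software's flag; 13 of the 15 passed, with at least 1 for each of the 10 genes, as did 25673 probes in all. Of the 2 that did not pass, 1 was named for AGO1 and 1 for AGO4.

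RNA came from PC3, an established prostate cancer cell line that was derived from a metastasis. Cells received a SUB1 siRNA duplex (SUB1 siRNA 1 or SUB1 siRNA 2) or Non-T siRNA, a non-targeting duplex, by lipid transfection that was repeated 24 h later, and RNA was harvested 72 h after the first transfection. Each of 2 dual-colour Agilent arrays on 1 slide carried 1 SUB1 knockdown in Cy5 and Non-T siRNA-treated cells in Cy3, with no dye swap, so dye and knockdown cannot be told apart. There was 1 array per siRNA and hence no test for a single siRNA. The controls had themselves been transfected with siRNA, so no ratio here compares cells with and without a foreign duplex. The 2 arrays both used Non-T siRNA as reference, and whether it was 1 extract is not stated in the sources used here.

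In microRNA production, DROSHA and its RNA-binding partner DGCR8 cut hairpins out of primary transcripts in the nucleus, and XPO5 carries the hairpins to the cytoplasm. There DICER1, with TARBP2 or PRKRA bound to it, trims each hairpin to a short duplex. One strand is kept by an Argonaute protein, which finds matching messages mainly through the seed, the stretch from base 2 to base 8 of the small RNA. Transfected siRNA duplexes enter the pathway at the Argonaute step, where AGO2 is the family member best known for cutting its target.

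Apart from AGO2, which was not searched, microRNA genes lie inside 2 of these genes in the RefSeq gene table of GRCh38.p14. It places the microRNA genes MIR3618 and MIR1306 in DGCR8 and MIR3173 in DICER1. Their mature sequences are shown with that of miR-101, the microRNA that the study connected with SUB1, because each is a product that the 10 genes make or use. Capitals mark the seed, and the sequences are RefSeq's. No 2 of the 6 share a seed. The arrays measured messenger RNA and give no level for any of these microRNAs.
hsa-miR-3618 (in DGCR8): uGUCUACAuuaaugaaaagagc
hsa-miR-1306-5p (in DGCR8): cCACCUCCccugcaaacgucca
hsa-miR-1306-3p (in DGCR8): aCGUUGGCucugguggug
hsa-miR-3173-5p (in DICER1): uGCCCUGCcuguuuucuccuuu
hsa-miR-3173-3p (in DICER1): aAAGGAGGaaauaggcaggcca
hsa-miR-101-3p: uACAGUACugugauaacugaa

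AGO4, AGO1 and AGO3 lie next to each other on chromosome 1, in that order, with no other protein-coding gene between them. The 250 bases before the start of these 3 genes and of DICER1 are shown from the RefSeq promoter table (GRCh38.p14) because AGO4 and DICER1 had the highest ratios among the 10 genes, while AGO1 and AGO3 are AGO4's neighbours. For DICER1, the most 5′ of its 5 listed starts was used. Capitals mark every match, on either strand, to the GC box (GGGCGG), the CCAAT box (CCAAT), the TATA box (TATAAA) or the E-box (CACGTG); no 2 of these matches overlap in the sequences shown.
AGO4 (chr1:35807766-35808015, plus strand): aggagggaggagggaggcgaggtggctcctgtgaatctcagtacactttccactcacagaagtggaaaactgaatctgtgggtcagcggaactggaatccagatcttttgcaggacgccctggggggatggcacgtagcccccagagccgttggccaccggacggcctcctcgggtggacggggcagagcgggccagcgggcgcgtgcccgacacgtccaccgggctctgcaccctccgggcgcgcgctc
AGO1 (chr1:35882959-35883208, plus strand): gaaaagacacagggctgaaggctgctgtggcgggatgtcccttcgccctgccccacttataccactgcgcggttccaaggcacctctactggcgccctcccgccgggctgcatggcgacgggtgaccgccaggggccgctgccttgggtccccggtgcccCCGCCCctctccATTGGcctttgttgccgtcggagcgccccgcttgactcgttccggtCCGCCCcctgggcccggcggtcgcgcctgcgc
AGO3 (chr1:35930855-35931104, plus strand): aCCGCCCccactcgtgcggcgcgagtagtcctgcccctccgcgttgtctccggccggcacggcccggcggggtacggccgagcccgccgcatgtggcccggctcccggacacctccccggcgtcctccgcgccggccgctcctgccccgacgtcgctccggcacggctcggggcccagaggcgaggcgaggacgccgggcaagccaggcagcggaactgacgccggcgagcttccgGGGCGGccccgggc
DICER1 (chr14:95158011-95158260, minus strand): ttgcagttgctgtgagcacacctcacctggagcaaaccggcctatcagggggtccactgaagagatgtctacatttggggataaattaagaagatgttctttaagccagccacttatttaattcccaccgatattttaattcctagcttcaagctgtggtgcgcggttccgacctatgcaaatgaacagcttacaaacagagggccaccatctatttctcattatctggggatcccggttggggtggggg

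AGO1 held 2 GC boxes and 1 CCAAT box, AGO3 held 2 GC boxes, and AGO4 and DICER1 held no match to any of the 4 motifs. Each member was counted once, at its most 5′ start, while the windows of all genes take in every listed start, so the units differ. Of the 9 members with an entry, 7 held a GC box and 5 a CCAAT box, against 42.6% and 32.0% of all 35116 promoter windows of that length. The other 2 motifs were in none of the 9, and in 10.7% (TATA box) and 6.34% (E-box) of all windows. The AGO3 window was 80.0% G or C and that of DICER1 48.0%, with a median of 58.0% over all windows. AGO2 had no entry. These are letter matches in a reference and say nothing about which factors were bound in PC3 cells.

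The labels were checked first. SUB1 was measured by 4 probes, and its log2 ratio of knockdown over Non-T siRNA lay between -3.75 and -1.81 with siRNA 1 and between -3.50 and -1.57 with siRNA 2. Probes of the epithelial keratins KRT8 and KRT18, of EPCAM and of VIM gave signal well above background. The probes of the leukocyte marker PTPRC, the endothelial markers CDH5 and VWF and the fibroblast marker PDGFRB did not in the Non-T channel. CD14, COL1A1, DCN, PECAM1 and 1 of 2 CD3E probes were above background at Non-T intensities of 110 to 164, and 1 of 3 probes named for KLK3 was bright (18634 and 15436) while the other 2 were not above background. Among 209 probes spotted 10 times, repeat spots had a median SD of 0.08 (siRNA 1 array) and 0.07 (siRNA 2 array) in log2 ratio. Each member probe was on an array once, so its own spot error is not known. Over all probes kept, the Non-T channel differed between arrays with an SD of 0.12 on the log2 scale, and the Cy5 channel with an SD of 0.30.

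With loess within each array, no member probe reached a 2-fold change; under 2 other scalings DICER1 or AGO4 probes did, as given with those genes. With siRNA 1, 0 of the 13 probes passed a 2-fold change in either direction, where 0.752% of all probes did. With siRNA 2, again 0 of 13 passed, where 1.45% of all probes did. The median log2 ratio of the 13 was 0.05 with siRNA 1 and 0.03 with siRNA 2, and the median of all probes was 0.01 and 0.02. On each array 7 member probes lay above 0 and 6 below. At a lower threshold of 1.5-fold, 1 probe passed with siRNA 1 (DICER1, higher; 5.13% of all probes passed) and 2 with siRNA 2 (both AGO4, higher; 7.13% passed).

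**Figure D1:**
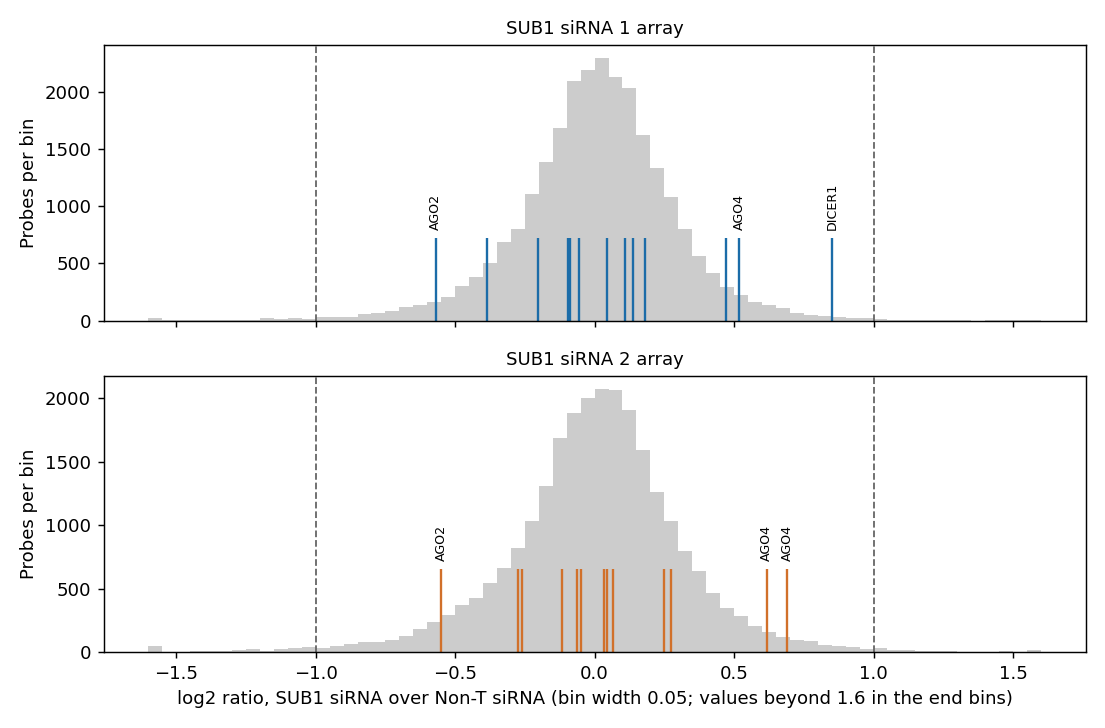
Histogram of the log2 ratio (x axis, SUB1 siRNA over Non-T siRNA) of all 25673 probes kept, with probes per bin on the y axis, for SUB1 siRNA 1 (top) and SUB1 siRNA 2 (bottom). Coloured lines mark the 13 member probes, with names for those at least 0.5 from 0, and dashed lines mark a 2-fold change; all 13 lie inside the dashed lines on both arrays.

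A moderated test of the mean ratio of both arrays against 0 (limma, Benjamini-Hochberg over 25673 probes) called 0 of the 13 probes at an adjusted p under 0.05, and 3 probes (0.0117%) in all. This test treats the siRNAs as 2 replicates of a SUB1 knockdown and leaves out the spread between controls, since Non-T siRNA enters only as the reference of each ratio. The lowest adjusted p among the members was 0.107 and the highest 0.947. At an unadjusted p under 0.05, 4 member probes passed, 2 higher (AGO4 and DICER1) and 2 lower (AGO2 and PRKRA), and 21.2% of all probes passed. The ratios below are therefore given as values of 2 arrays, and none is a call. Each SE below is limma's moderated one, which is drawn towards the spread of all probes. It is not the SE of the 2 arrays alone.

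**Figure D2:**
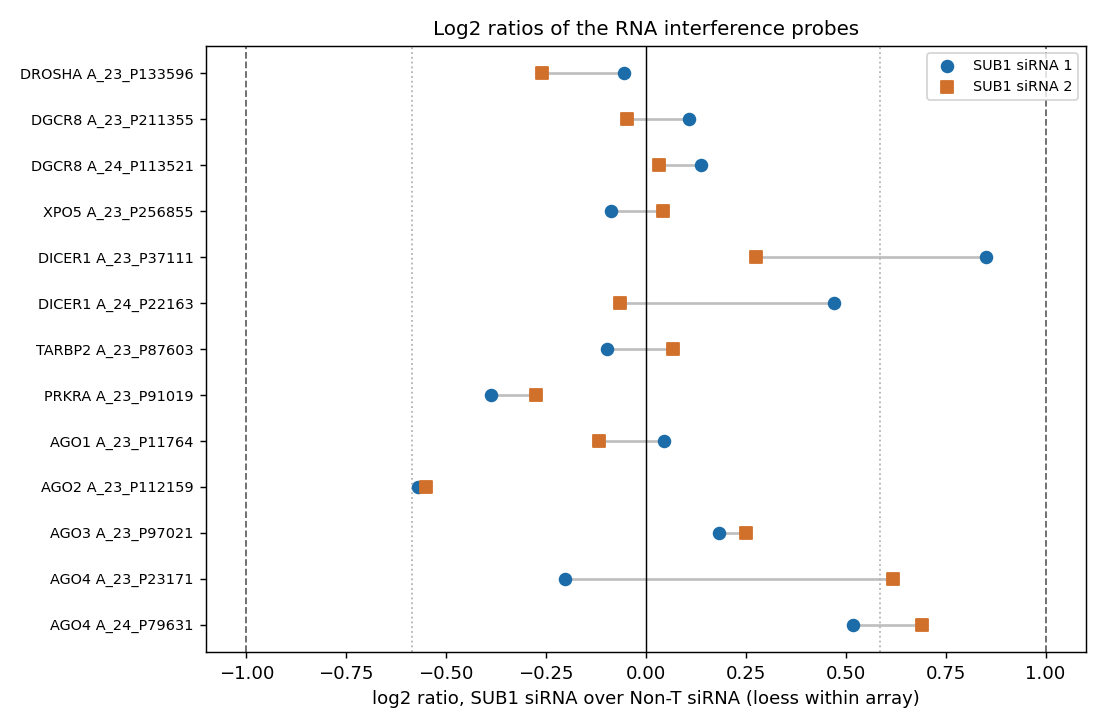
Log2 ratio (x axis, SUB1 siRNA over Non-T siRNA after loess within each array) of the 13 member probes kept (y axis), with SUB1 siRNA 1 as blue circles and SUB1 siRNA 2 as orange squares. Grey bars join the values of a probe, dotted lines mark 1.5-fold and dashed lines 2-fold; AGO2 has the closest pair of values, at -0.57 and -0.55, and AGO4 A_23_P23171 the widest, at -0.20 and 0.62.

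Signals below are mean spot intensities in scanner units before normalization. Cy3 and Cy5 have their own scales, which loess balances, so that a raw pair can lean another way than its log2 ratio. Levels of different probes cannot be set against each other. Whether groups overlap was read on a common log2 scale, after loess and scaling between arrays. On it both knockdown levels lay below both Non-T levels on 3 of the 13 probes (DROSHA, PRKRA and AGO2), as they did on 25.9% of all probes. They lay above on 4 (DGCR8 A_24_P113521, DICER1 A_23_P37111, AGO3 and AGO4 A_24_P79631), as on 29.6% of all probes, and the groups overlapped on the other 6.

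The nuclear step was read by 3 probes, for DROSHA and DGCR8. The DROSHA probe, A_23_P133596 (hg18, chr5:31437230-31437289, minus strand), gave 2965 in Non-T siRNA-treated cells and 3546 with siRNA 1, and 2635 and 2748 on the siRNA 2 array. Its log2 ratios were -0.06 (siRNA 1) and -0.26 (siRNA 2). The mean of -0.16 (SE 0.10, n = 2 arrays) had an adjusted p of 0.439 in limma, and turned positive with median centring (0.11). DROSHA is the RNase of the nuclear complex.

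DGCR8, which holds the hairpin for DROSHA, had 2 probes. A_24_P113521 (hg18, chr22:18454131-18454190, plus strand) read 295 in Non-T and 347 with siRNA 1, then 250 and 277 on the siRNA 2 array, with log2 ratios of 0.14 and 0.03. A_23_P211355 (hg18, chr22:18478916-18478975, plus strand) read 174 and 184, then 161 and 159, with log2 ratios of 0.11 and -0.05. The mean ratios were 0.09 (SE 0.10) and 0.03 (SE 0.10). With median centring they were 0.23 and 0.11, and in the authors' deposited ratios 0.03 and -0.04.

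XPO5, the export receptor for hairpins, differed little between channels. Its probe A_23_P256855 (hg18, chr6:43598561-43598620, minus strand) read 205 in Non-T and 196 with siRNA 1, then 171 and 177 on the siRNA 2 array. The log2 ratios were -0.09 and 0.04, with a mean of -0.02 (SE 0.10; adjusted p = 0.919 in limma). The 2 ratios lay on opposite sides of 0 and 0.13 apart.

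DICER1, the RNase that cuts hairpins and long duplexes, read higher with siRNA 1 than with siRNA 2 on both of its probes. On A_23_P37111 (hg18, chr14:94625986-94626045, minus strand), Non-T siRNA-treated cells gave 370 and 324, against 747 with siRNA 1 and 439 with siRNA 2. On A_24_P22163 (mapped across hg18, chr14:94627185-94627337, minus strand), Non-T siRNA-treated cells gave 292 and 250, against 438 with siRNA 1 and 256 with siRNA 2. On the common log2 scale the siRNA 1 level was the highest of the 4 on both probes.

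On A_23_P37111, the DICER1 log2 ratios were 0.85 (siRNA 1) and 0.27 (siRNA 2), a 1.80-fold and a 1.21-fold higher level. Of all probes, 1.39% (siRNA 1) and 30.8% (siRNA 2) lay at least as far from 0. On A_24_P22163 the log2 ratios were 0.47 and -0.06, and 9.05% and 79.9% of all probes lay at least as far from 0. On a common log2 scale, the Non-T channel of the siRNA 2 array differed from that of the siRNA 1 array by 0.03 on A_23_P37111 and by -0.05 on A_24_P22163, while the Cy5 channels differed by -0.55 and -0.58. The gap between the siRNAs thus lay in the knockdown channel on both probes. A gap at least that wide was found for 5.91% of all probes (A_23_P37111) and 7.36% (A_24_P22163). With 1 array per siRNA the gap was not tested. The means were 0.56 (SE 0.16, or 0.29 from the 2 arrays alone) and 0.20 (SE 0.16, or 0.27 from the 2 arrays alone). Their adjusted p-values in limma were 0.172 and 0.498. The second mean was 0.35 with median centring and 0.42 with the scanner software's own signals, where its siRNA 2 ratio was above 0 (0.0735 and 0.0633). With median centring or the scanner software's own signals, the siRNA 1 ratio of A_23_P37111 was 1.04 and so passed 2-fold, as did 0.935% and 6.01% of all probes, and it stood 0.93 and 0.91 above the median that all probes had under those settings, which is under 2-fold.

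The partners of DICER1 stayed within 1.5-fold. TARBP2, which helps load the duplex, had 1 probe (A_23_P87603; hg18, chr12:52186164-52186223, plus strand) that read 484 in Non-T and 517 with siRNA 1, then 390 and 462. Its log2 ratios were -0.10 and 0.07 and its mean -0.01 (SE 0.10; adjusted p = 0.947 in limma), the closest to 0 of the 13.

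PRKRA, the other partner and an activator of the kinase PKR, was lower on both arrays. Its probe A_23_P91019 (hg18, chr2:179004284-179004322, minus strand; the mapped span is 39 bases) read 772 in Non-T and 694 with siRNA 1, then 693 and 672. On the common log2 scale the Non-T levels were 9.57 and 9.66 and the knockdown levels 9.19 and 9.38. The log2 ratios were -0.39 and -0.28, a 1.31-fold and a 1.21-fold lower level. The mean of -0.33 (SE 0.10) had an unadjusted p of 0.0213 and an adjusted p of 0.174 in limma, and with median centring it was -0.12.

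**Figure D3:**
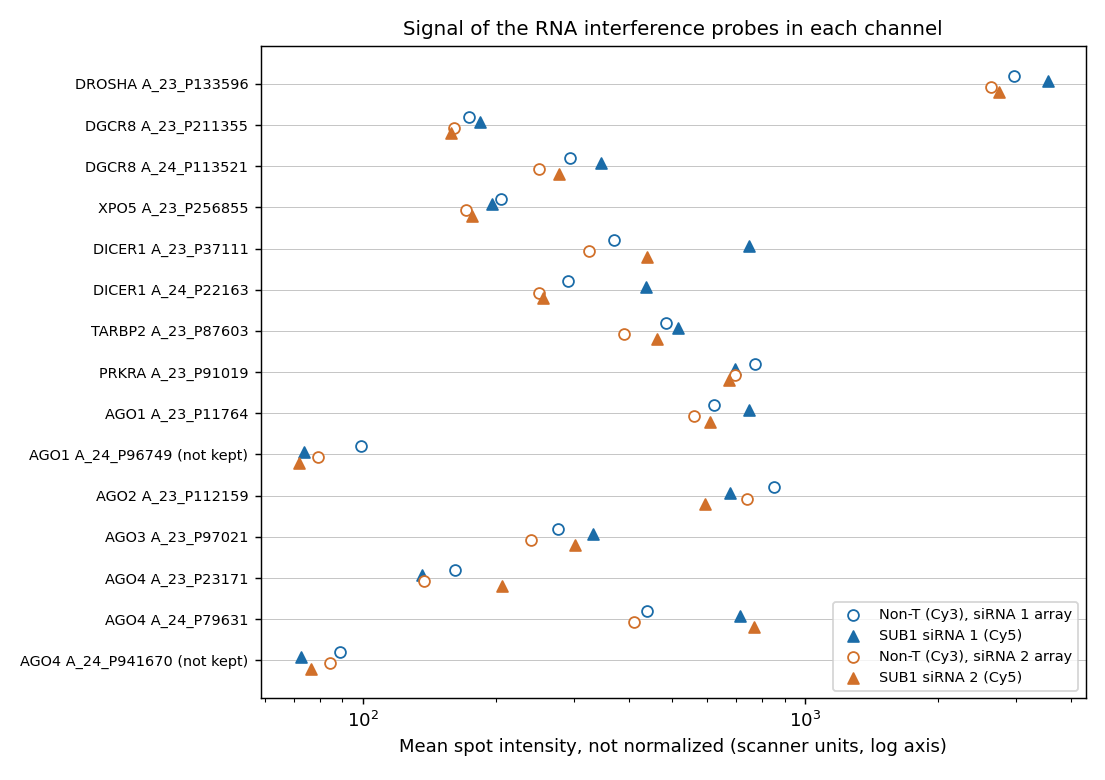
Mean spot intensity (x axis, scanner units on a log scale, before normalization) of the 15 member probes (y axis) in each channel, with open circles for Non-T siRNA (Cy3) and filled triangles for SUB1 siRNA (Cy5), blue for the siRNA 1 array and orange for the siRNA 2 array. The siRNA 1 triangle stands to the right of the other 3 symbols on both DICER1 probes; Cy3 and Cy5 have their own scales here.

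The 4 Argonautes, which hold the guide strand, went different ways. AGO1, mapped by A_23_P11764 (hg18, chr1:36162281-36162340, plus strand), read 622 in Non-T and 749 with siRNA 1, then 562 and 611. Its log2 ratios of 0.05 and -0.12 averaged -0.04 (SE 0.10; adjusted p = 0.863 in limma). The other AGO1 probe, A_24_P96749, was not well above background, with 99.2 in Non-T and 73.8 with siRNA 1, then 79.3 and 71.6.

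AGO2 was lower with both siRNAs, by nearly the same amount. The single AGO2 probe, A_23_P112159 (hg18, chr8:141611129-141611188, minus strand), read 852 and 738 in Non-T siRNA-treated cells, 677 with siRNA 1 and 593 with siRNA 2. On the common log2 scale the Non-T levels were 9.72 and 9.75 and the knockdown levels 9.15 and 9.20. The log2 ratios were -0.57 and -0.55, a 1.48-fold and a 1.46-fold lower level, and 3.07% and 4.64% of all probes had lower ratios. The mean was -0.56 (SE 0.09, or 0.01 from the 2 arrays alone), and with median centring it was -0.35. In limma the mean had an unadjusted p of 0.00242 and an adjusted p of 0.107. Of all probes, 92.8% had a wider gap between the siRNAs than AGO2. This gene had no other probe by its name, so the ratio has no second reading.

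AGO3, whose probe A_23_P97021 lies at chr1:36294139-36294198 (hg18, plus strand), read 276 in Non-T and 332 with siRNA 1, then 240 and 301. The ratios were 0.18 and 0.25, a 1.13-fold and a 1.19-fold higher level. The mean of 0.22 (SE 0.09) had an unadjusted p of 0.0763 and an adjusted p of 0.279 in limma. It was 0.36 with median centring and 0.43 with the scanner software's own signals.

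AGO4 had 3 probes, and they differed. The brightest, A_24_P79631 (hg18, chr1:36095690-36095749, plus strand), read 439 and 410 in Non-T siRNA-treated cells, 713 with siRNA 1 and 766 with siRNA 2. On the common log2 scale the Non-T levels were 8.73 and 8.87 and the knockdown levels 9.25 and 9.56. The log2 ratios were 0.52 and 0.69, a 1.43-fold and a 1.61-fold higher level, and the mean of 0.61 (SE 0.10) had an unadjusted p of 0.00246 and an adjusted p of 0.107 in limma.

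The second AGO4 probe, A_23_P23171 (hg18, chr1:36093007-36093066, plus strand), read 162 in Non-T and 136 with siRNA 1, then 137 and 206 with siRNA 2. Its log2 ratios were -0.20 and 0.62 in that order. The siRNA 2 value was like that of the brighter probe, and the siRNA 1 value lay on the other side of 0. A_24_P941670, which maps between the other 2 (hg18, chr1:36094477-36094536), read 88.7 and 72.7, then 84.3 and 76.2, and was not well above background. With siRNA 1, therefore, AGO4's higher ratio rests on 1 of its 2 probes kept. With the scanner software's own signals, the siRNA 2 ratios were 1.00 on A_24_P79631 and 1.11 on A_23_P23171, past 2-fold, as were 8.20% of all probes under that setting. Relative to the median of all probes there, 0.16, they were 0.85 and 0.96 and so under 2-fold.

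The next question was whether genes that work with these 10 moved. A list of 75 such genes in 6 groups was read by 149 probes, of which 130 probes for 67 genes were kept. The median log2 ratio was -0.04 with siRNA 1 and -0.05 with siRNA 2. In this list 4 probes were at least 2-fold lower with siRNA 1 and 4 other probes with siRNA 2, and 0 were 2-fold higher. That is 3.08% of the list on each array, where 0.557% (siRNA 1) and 0.923% (siRNA 2) of all probes were 2-fold lower. Of the 4 probes, 3 were of HSP90AA1 with siRNA 1 and 3 of PABPC1 with siRNA 2. With only the brightest probe of each of the 67 genes, 1 and 1 passed 2-fold in either direction, where 0.817% and 1.68% of all genes did. Among all genes, 117 and 205 of those that passed were lower and 40 and 118 higher. With median centring, 1 and 0 probes of the list passed 2-fold in either direction, as did 0.935% and 1.66% of all probes. The limma test called 0 of the 130 at an adjusted p under 0.05, and 31 (23.8%, against 21.2% of all probes) passed the unadjusted threshold, 12 higher and 19 lower. IPO8, LIMD1, LIN28A, LIN28B, PIWIL1, PIWIL3 and PIWIL4 had no probe above the filter, and WTIP had no probe by that name.

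The chaperones that open Argonautes for the duplex had the lowest group median with both siRNAs, -0.20 and -0.18. Of their 22 probes, for 9 genes, 18 and 17 lay below 0 (47.5% and 47.6% of all probes did). HSP90AA1, HSPA8 and PTGES3 gave 4 of these probes each. Group medians and counts here and below are with loess only and were not read under other scalings. With median centring single ratios rose, as that of DROSHA with siRNA 1 did from -0.06 to 0.20. HSP90AA1, the inducible cytosolic HSP90, had 4 probes with log2 ratios of -1.13 to -0.76 with siRNA 1 and -0.65 to -0.29 with siRNA 2. STIP1, which links HSP70 to HSP90, had ratios of -1.16 and -0.81 on 2 probes with siRNA 1, and -0.54 and -0.25 with siRNA 2. HSPA8, the constitutive HSP70, had 0.23 with siRNA 1 and -0.09 with siRNA 2 on its brightest probe, the highest mean of both arrays in this group by brightest probes.

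In the nuclear group, RAN, the GTPase that XPO5 needs to bind its cargo, had 3 probes at -0.30 to -0.13 with siRNA 1 and at -1.03 to -0.41 with siRNA 2. The lowest of them, A_24_P47547, passed 2-fold with siRNA 2 and read 8443 in Non-T and 5401 in the knockdown. DDX5, a helicase of the DROSHA complex, had ratios of 0.37 and 0.53. The group's median over 20 probes was -0.08 and -0.15, with 15 and 16 probes below 0 and 5 and 4 above.

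Among the silencing effectors, which act after Argonaute binding, PABPC1, the poly(A)-binding protein that GW182 proteins contact, had 3 probes at -0.67 to -0.56 with siRNA 1 and at -1.14 to -1.07 with siRNA 2. TNRC6A, a GW182 protein that binds Argonautes, had ratios of 0.32 and 0.80 on its 1 probe kept. The median over the 54 probes of this group was 0.10 and 0.04, with 21 and 26 probes below 0 and 33 and 28 above.

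Of the remaining groups, the editing enzyme ADARB1 had ratios of -0.53 and -0.68 on its 1 probe kept, and the RNA kinase CLP1 had -0.18 and 0.59 on its brightest. The uridylyl transferase TUT1 had -0.44 and -0.36, and the deadenylase PARN had 0.12 and 0.27 on its brightest probe. PIWIL2, the 1 PIWI gene kept, had 0.38 and -0.04. HSP90AA1, HSPA8, RAN and PABPC1 have many near-identical copies in the genome, and their probes could also have read those.

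**Figure D4:**
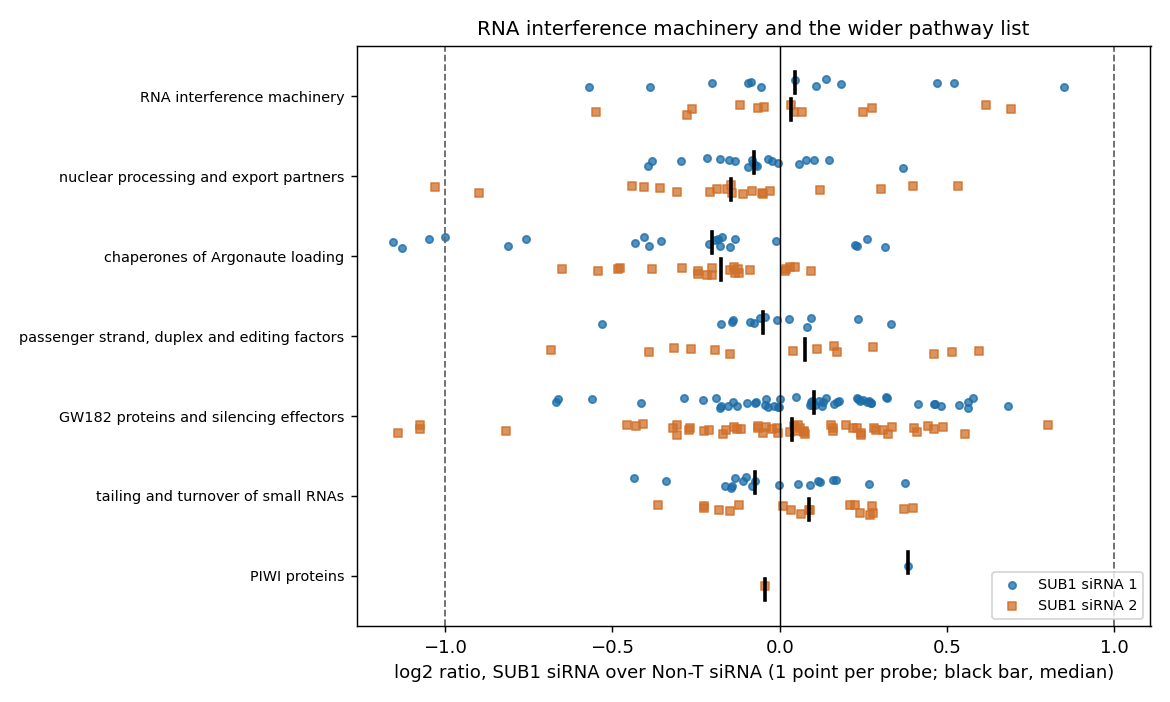
Log2 ratio (x axis, SUB1 siRNA over Non-T siRNA) of every probe kept for the 10 genes (top) and for each of the 6 groups of the wider list (y axis), blue circles for SUB1 siRNA 1 and orange squares for SUB1 siRNA 2, spread vertically for legibility. Black bars are medians and dashed lines mark 2-fold. With loess within each array, the chaperones had medians of -0.20 and -0.18, and the 13 member probes 0.05 and 0.03.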

How the data were processed

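The authors hybridised 2 dual-colour arrays, scanned them with Agilent Feature Extraction and deposited each spot's intensity and local background in both channels; the header names hg18. The authors also deposited a table of log2 ratios, made by loess on each array per the methods, whose direction was settled against the intensities. From the deposited intensities, mean signals were corrected with normexp (offset 50) on median background, controls were dropped, log2 ratios were normalized within array by loess with a span of 0.3, and outlier spots were left out (R 4.3.3, limma 3.58.1). Channel levels on a common log2 scale came from Aquantile scaling between arrays. The filter asked that, on each array, the share of spots flagged as well above background reach 0.5 in Cy3 or Cy5. Ratios against 0 over both arrays were tested with limma's moderated test and Benjamini-Hochberg adjustment over all probes; the code was tested on simulated data. The number of arrays limits the precision. Pathway genes named in the text were those with a probe past 2-fold on either array and, in each group, the genes whose brightest probe had the highest and lowest mean ratio. Some marker genes are not reported here. The members and lists were chosen with earlier results of these data known. Alternatives were background correction, spot summary, centring, the scanner's processed signals, the authors' ratios, filters, outlier spots, probe choice, fold threshold, the prior, and each array alone.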

Additional observations from a re-analysis of the deposited data

Results flagged for a closer look

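AGO4 A_23_P23171 had a log2 ratio of -0.20 with SUB1 siRNA 1 and 0.62 with SUB1 siRNA 2, opposite directions under the same contrast with 1 array each. The difference was not tested. Its Non-T channel differed by -0.09 between the arrays on the common log2 scale and its Cy5 channel by 0.73, and the brighter AGO4 probe, A_24_P79631, had ratios of 0.52 and 0.69. A gap at least this wide was found for 2.26% of all probes.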

How the results depend on the processing

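AGO2 and PRKRA stayed below 0, and AGO3, DICER1 A_23_P37111 and AGO4 A_24_P79631 above 0, on both arrays under every processing alternative run; the AGO2 mean ranged from -0.57 to -0.35 that of AGO4 A_24_P79631 from 0.58 to 0.87, that of PRKRA from -0.33 to -0.12 (adjusted p 0.149 to 0.462 in limma), that of AGO3 from 0.19 to 0.43 and that of DICER1 A_23_P37111 from 0.51 to 0.74. Median centring moved the median of all probes to 0.11 (siRNA 1) and 0.10 (siRNA 2), and the scanner's processed signals moved it to 0.13 and 0.16; relative to it, AGO2 lay at -0.47 and -0.44 with median centring. Under median centring, 10 and 11 of the 13 member probes lay above 0, the members' medians were 0.20 and 0.14, 1 member passed 2-fold with siRNA 1, and 1 and 0 probes of the wider list passed; over all probes, 169 were 2-fold higher and 71 lower with siRNA 1, against 50 and 143 with loess. With the scanner's processed signals, 1 member probe (DICER1) passed 2-fold with siRNA 1 and 2 (AGO4) with siRNA 2, where 6.01% and 8.20% of all probes passed, and at 1.5-fold with loess 1 and 2 did (5.13% and 7.13% of all probes). In the wider list 9 and 10 of 130 probes passed 1.5-fold, shares near those of all probes with both directions together. Of these, 8 and 8 were lower and 1 and 2 higher. Over all 25673 probes, 749 and 1012 were lower and 568 and 818 higher. At 2-fold in either direction, 1 and 1 of the wider list passed with only the brightest probe of each gene. In the authors' ratios 3 and 1 did (0.756% and 1.41% of all probes), and with the processed signals 5 and 6. Means that changed sign were, with median centring TARBP2 (0.17), DROSHA (0.11), XPO5 (0.0752) and AGO1 (0.17); with processed signals TARBP2 (0.0529) and AGO1 (0.0012); with the authors' ratios AGO1 (0.0396) and DGCR8 A_23_P211355 (-0.0392). With each array left out in turn, the remaining value ran from -0.0962 to 0.0674 for TARBP2, from -0.0637 to 0.47 for DICER1 A_24_P22163, from -0.0865 to 0.0436 for XPO5, from -0.12 to 0.0462 for AGO1, from -0.0476 to 0.11 for DGCR8 A_23_P211355 and from -0.20 to 0.62 for AGO4 A_23_P23171. The cause of these changes was not tested. The limma test called 0 members under every alternative that kept both arrays (1 array alone allows no test), with a lowest adjusted p of 0.055 when dim probes were kept, where 452 of all probes passed against 3; 0 passed with the processed signals and with the authors' ratios. No paired analysis was possible because each siRNA had 1 array, which leaves no replicate number to block on, beyond the pairing of knockdown and Non-T siRNA within an array that each log2 ratio already holds.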
